A study of Mus musculus with 15 samples.

Results

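A set of 10 genes of resident interstitial macrophages was followed through every library of a mouse lung metastasis series: the C1q chains C1qa, C1qb and C1qc, and the receptors Cd163, Folr2, Mrc1, Lyve1, Cd209b, Cd209f and Cd209g. They are 10 of 54838 genes in the deposited tables, found by matching Ensembl identifiers to GRCm38 gene symbols, and all 10 had a row in each of the 15 libraries. The 10 genes were chosen by expression levels measured in these same libraries, and which comparison led to the choice is not recorded. Their levels and differences are therefore given as a description, without p-values, and adjusted p-values are printed only for other genes. The series holds bulk RNA-seq of 5 groups with 3 libraries each. The niche group labelled shSox9, the niche group and the distal group are libraries titled EpCAM, for the epithelial surface protein, and sourced as lung epithelial cells. They were sorted from BALB/c lungs 7 days after tail vein injection of 4T1 cells, a mouse mammary carcinoma line, in a form that labels cells around it, and each replicate pooled 5 lungs. All 3 epithelial groups thus came from lungs carrying 4T1 cells, and the distal group is no tumour-free control. The label shSox9 names a short hairpin against Sox9, and the labels do not say which cells received it. The 2 remaining groups are 4T1 cells isolated from BALB/c lungs 7 days after tail vein injection (in vivo) and 4T1 cells from the dish (in vitro). The labels give neither age nor sex of the mice, nor whether the 4T1 replicates came from separate animals or cultures. For the 4T1 in vivo libraries no injected dose or pooling of lungs is recorded.

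Interstitial macrophages live in the lung tissue around vessels, airways and nerves, apart from the alveolar macrophages of the airspace. C1q is the recognition unit of the classical complement pathway: 3 related chains, each with a collagen-like stem and a globular head, assemble into a bouquet-shaped molecule that binds antibody, apoptotic cells and microbes, and tissue macrophages are a main source of it. The receptors take up cargo or bind sugars. CD163 clears haemoglobin bound to haptoglobin, FOLR2 is folate receptor beta, MRC1 is the mannose receptor CD206 and LYVE1 binds hyaluronan. CD209B (SIGN-R1), CD209F and CD209G are mouse C-type lectins related to human DC-SIGN. Lyve1 is also a gene of lymphatic endothelium, and Mrc1 is also made by alveolar macrophages.

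The genes lie in 6 places of the genome, and sequence similarity bears on how their reads could be counted. C1qa (chr4:136895917-136898803), C1qb (chr4:136880129-136886187) and C1qc (chr4:136889804-136893065) are neighbours on the minus strand of GRCm38 within 18.7 kb. Cd209b (chr8:3917655-3926844, minus strand), Cd209f (chr8:4102787-4105835, minus strand) and Cd209g (chr8:4134098-4137707, plus strand) lie within 220 kb. Cd163 is at chr6:124304656-124330527 on the plus strand, Mrc1 at chr2:14229392-14332057 on the plus strand, and Folr2 (chr7:101839988-101857194) and Lyve1 (chr7:110850607-110863239) are on the minus strand of chromosome 7. All are protein coding. Among windows of 75 bases, the read length, cut from the annotated transcripts, Cd209f shared 23.5% of its windows with Cd209g, and Cd209g shared 13.2% with Cd209f. Folr2 shared 47.1% of its windows with Gm10602. The other 7 genes shared none with another gene, so the counts of Cd209f, Cd209g and Folr2 alone depend on how the authors' program split reads.

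RefSeq promoter sequences (GRCm38.p6, 250 bases before to 50 after the start site) were found for 8 of the 10 genes, with 2 for Folr2. C1qa and Lyve1 had no entry. The pair from Cd209f (chr8:4105715-4106014, minus strand) and Cd209g (chr8:4134486-4134785, plus strand) is shown because these genes differed most of the 10 between niche and either other epithelial group, and because they resemble each other. Capitals mark a run of 180 bases that the 2 promoters share without a mismatch.
Cd209f: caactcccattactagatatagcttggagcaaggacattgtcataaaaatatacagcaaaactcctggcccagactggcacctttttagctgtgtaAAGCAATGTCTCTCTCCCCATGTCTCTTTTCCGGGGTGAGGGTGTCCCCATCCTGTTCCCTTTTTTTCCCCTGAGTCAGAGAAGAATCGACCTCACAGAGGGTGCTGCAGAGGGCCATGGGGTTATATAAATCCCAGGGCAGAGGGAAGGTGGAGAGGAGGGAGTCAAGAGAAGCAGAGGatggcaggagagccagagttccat
Cd209g: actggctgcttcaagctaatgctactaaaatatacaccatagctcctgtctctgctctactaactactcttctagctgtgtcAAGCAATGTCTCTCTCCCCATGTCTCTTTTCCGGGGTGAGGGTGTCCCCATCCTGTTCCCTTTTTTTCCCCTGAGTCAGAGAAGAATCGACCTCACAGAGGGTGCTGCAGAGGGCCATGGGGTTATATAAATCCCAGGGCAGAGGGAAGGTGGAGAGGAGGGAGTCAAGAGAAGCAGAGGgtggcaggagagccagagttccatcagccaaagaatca
The Cd209b promoter shared no run longer than 10 bases with either of them. The promoters of C1qb (chr4:136886151-136886450, minus strand) and C1qc (chr4:136892865-136893164, minus strand) are shown because the C1q chains moved together across libraries. Capitals mark GAGGAA, the core of sites for the myeloid factor PU.1, and TGCTGA, the core of Maf sites, searched on both strands, where the reverse strand reads TTCCTC and TCAGCA. The 2 motifs can overlap by the bases GA, and no marked pair did so here.
C1qb: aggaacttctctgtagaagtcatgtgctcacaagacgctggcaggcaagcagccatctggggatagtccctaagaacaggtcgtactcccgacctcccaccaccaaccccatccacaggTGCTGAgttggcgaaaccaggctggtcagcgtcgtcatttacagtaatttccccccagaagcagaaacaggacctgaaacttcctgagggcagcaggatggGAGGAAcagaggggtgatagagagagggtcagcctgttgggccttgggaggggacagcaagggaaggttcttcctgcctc
C1qc: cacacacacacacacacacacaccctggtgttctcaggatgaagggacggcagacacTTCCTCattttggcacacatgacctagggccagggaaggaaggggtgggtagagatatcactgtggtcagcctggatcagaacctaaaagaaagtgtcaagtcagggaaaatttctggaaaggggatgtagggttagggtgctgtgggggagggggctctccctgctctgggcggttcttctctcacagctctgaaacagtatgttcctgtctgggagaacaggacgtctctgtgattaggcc
C1qb held 1 PU.1 core and 1 Maf core, and C1qc held 1 PU.1 core. The longest run shared by these 2 promoters was 10 bases. Among the 9 promoters of the 10 genes, 3 held GAGGAA, against 28.3% of all 32851 promoters in the table, and 3 held TGCTGA, against 19.5%. Such a match describes letters in this window and is not evidence of binding.

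All 10 genes stood highest in the niche libraries, and no niche library overlapped any other library for any of them. Levels are compared between genes in TPM, an abundance that the authors' program scales for transcript length and library size. C1qb was the most abundant of the 10 in all 9 epithelial libraries, followed by C1qc and then C1qa. The receptors were at least an order of magnitude lower in the niche group, where the mean TPM was 47.5 for Mrc1, 38.1 for Folr2, 23.1 for Cd209g, 18.1 for Cd209f, 11.3 for Cd163, 8.19 for Lyve1 and 7.52 for Cd209b. In that order the ranges of Mrc1 and Folr2 overlapped, as did those of Cd209g and Cd209f, of Cd163 and Lyve1, and of Lyve1 and Cd209b. The second group in mean TPM was the niche group labelled shSox9 for 8 of the genes. The exceptions were Cd209b, where it was the distal group, and Cd209f, where it was the 4T1 in vivo group. No receptor exceeded 13.8 TPM, the level of Mrc1 in replicate 1, in any library labelled shSox9 or distal. The 4T1 in vitro libraries listed 8 of the 10 genes at 0.

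**Figure D1:**
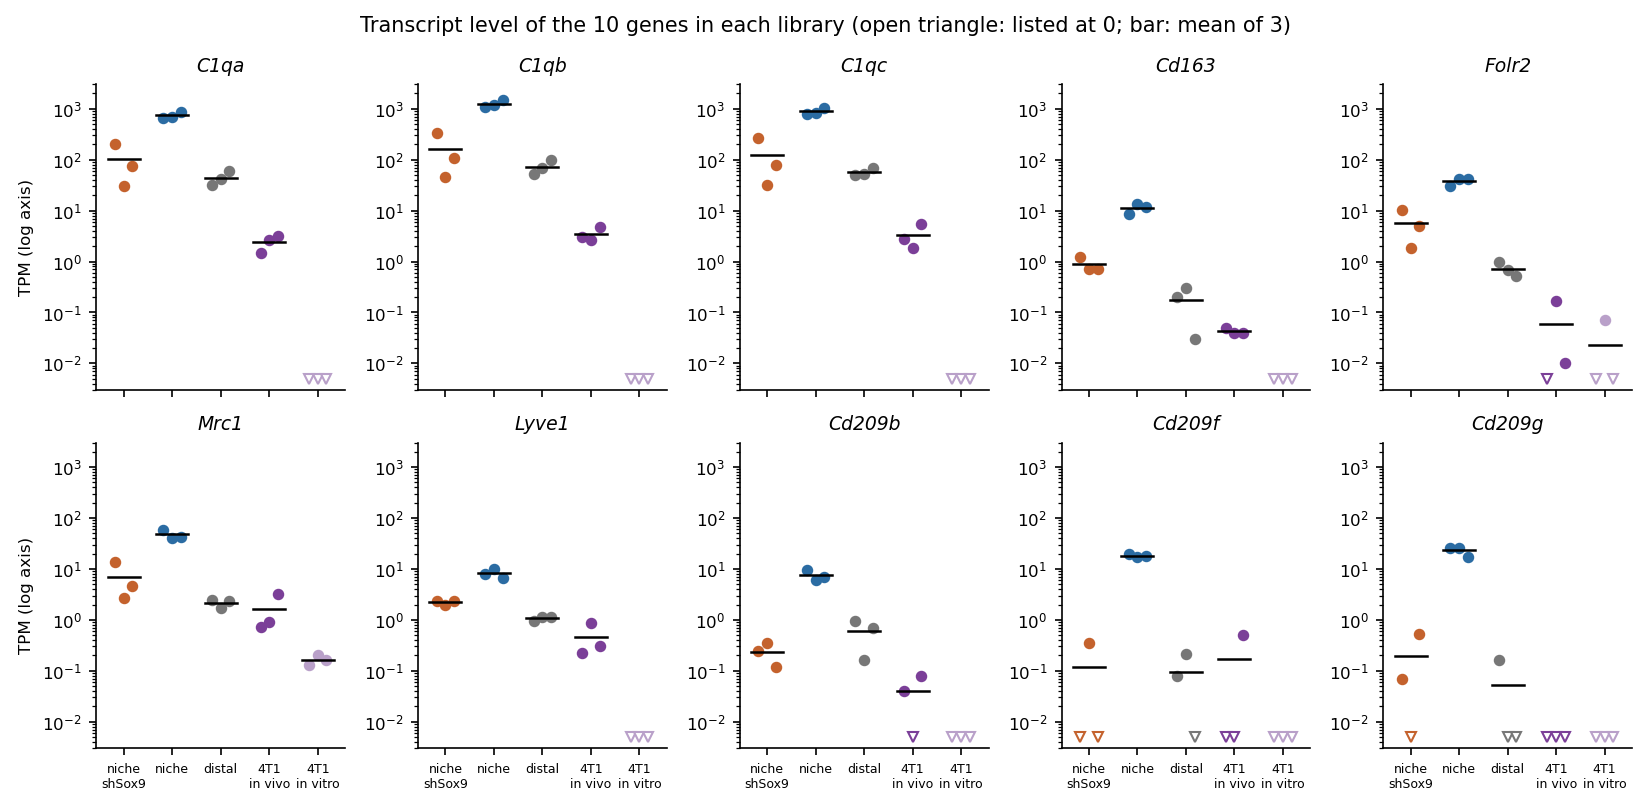
TPM (length-scaled transcript abundance, log axis) of each of the 10 genes in each of 15 libraries, with groups from left to right niche labelled shSox9, niche, distal, 4T1 in vivo and 4T1 in vitro; points are libraries, bars are means of 3 and open triangles are libraries listed at 0. The niche libraries are highest in every panel, from 6.16 TPM for Cd209b to 1461 TPM for C1qb, and the 3 libraries labelled shSox9 are spread widely for the C1q chains, Folr2 and Mrc1.

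Total counts were 15907316 to 30421705 per library. A gene at 0 counts can thus have a level of up to 0.0986 to 0.189 CPM, counts divided by library size, which 3 counts are worth. Sox9, the target named in the label, had 91.1, 62.3 and 36.8 CPM in the libraries labelled shSox9, against 64.9, 58.8 and 32.99 CPM in the niche libraries. Distal libraries had 4.37 to 5.59 CPM of Sox9, and 4T1 cells 286 to 412 CPM in vivo and 187 to 217 CPM in vitro. The shSox9 and niche groups overlapped and Sox9 was not lower under the label, so the group is called by its label throughout. Epcam had 23.7 to 35.9 CPM in libraries labelled shSox9, 29.7 to 74.0 CPM in niche libraries and 76.4 to 90.3 CPM in distal libraries. No library is a sort of macrophages, and leukocyte genes were counted in all 9 epithelial libraries, Ptprc (CD45) at 31.3 to 77.7 CPM under the label shSox9, 185 to 229 CPM in niche and 54.6 to 95.8 CPM in distal libraries. In bulk RNA, fewer cells of a type and less RNA per cell cannot be told apart.

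The first comparison asks how the 10 genes stood in niche epithelial libraries labelled shSox9 against niche libraries. All 10 were lower under the label, from 3.68-fold for Lyve1 to more than an order of magnitude for Cd163 and the Cd209 lectins, and no library labelled shSox9 reached any niche library. The C1q chains, Folr2 and Mrc1 differed by a similar amount of 6.98-fold to 7.67-fold, while Cd163 was 12.9-fold lower. Replicate 1 of the group labelled shSox9 kept the highest level of the C1q chains, Cd163, Folr2 and Mrc1.

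C1qa was at 202, 31.0 and 73.8 TPM in the libraries labelled shSox9, against 668, 703 and 855 TPM in the niche libraries. C1qb was at 336, 45.3 and 108 TPM under the label, against 1075, 1171 and 1461 TPM in niche. C1qc was at 261, 31.2 and 77.0 TPM under the label, against 789, 817 and 1056 TPM in niche. For each chain, replicate 1 was highest and replicate 2 lowest under the label, the niche libraries were close together, and the groups did not overlap. On counts scaled by the trimmed mean of M values (TMM), C1qa averaged 59.6 ± 49.4 CPM in libraries labelled shSox9 and 437 ± 70.9 CPM in niche libraries (SD, n = 3 each), a log2 fold change of -2.87 (SE 0.51). The log2 fold change was -2.94 (SE 0.55) for C1qb and -2.87 (SE 0.56) for C1qc. Without replicate 1 under the label, these differences widened to -3.76 for C1qa, -3.94 for C1qb and -3.97 for C1qc.

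Cd163, the haemoglobin scavenger receptor, was at 1.21, 0.70 and 0.72 TPM in libraries labelled shSox9, against 8.44, 13.6 and 11.95 TPM in niche. It averaged 2.11 ± 0.518 CPM under the label and 27.2 ± 6.25 CPM in niche (SD, n = 3 each), a log2 fold change of -3.68 (SE 0.35). The 3 libraries under the label were close together, unlike those of the C1q chains. Folr2, the folate receptor, was at 10.4, 1.83 and 4.97 TPM under the label, against 30.7, 42.1 and 41.5 TPM in niche, with a log2 fold change of -2.83 (SE 0.44). Mrc1, the mannose receptor, was at 13.8, 2.68 and 4.59 TPM under the label, against 59.4, 40.4 and 42.7 TPM in niche, with a log2 fold change of -2.80 (SE 0.45). Both followed the C1q pattern, with replicate 1 highest under the label, and without it the log2 fold change was -3.60 for Folr2 and -3.70 for Mrc1. Lyve1, the hyaluronan receptor, was at 2.35, 1.99 and 2.39 TPM under the label, against 7.79, 10.2 and 6.63 TPM in niche. Its log2 fold change of -1.88 (SE 0.22) was the smallest of the 10, and its libraries under the label differed little from each other. The unscaled CPM of replicate 1 under the label exceeded that of replicates 2 and 3 by 6.72 and 2.67 times for C1qa and by 5.14 and 3.07 times for Mrc1, but by only 1.36 and 1.03 times for Lyve1.

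The Cd209 lectins were close to the counting limit in libraries labelled shSox9. Cd209b, the SIGN-R1 lectin, had 6, 9 and 3 counts under the label, against 236, 160 and 114 counts in niche, a log2 fold change of -4.75 (SE 0.56). Cd209f had 0, 5 and 0 counts under the label, against 317, 267 and 210 expected counts in niche, a log2 fold change of -7.17 (SE 0.66). Cd209g had 1, 0 and 7 counts under the label, against 406, 407 and 205 expected counts in niche, a log2 fold change of -6.84 (SE 0.65). For all 3 the lowest niche library was more than an order of magnitude above the highest library under the label. Fitted values this close to 0 depend on single libraries: replicate 2 under the label held all 5 counts of Cd209f, and without it Cd209f was at least 167-fold lower under the label, with 3 counts over its 2 remaining libraries as the floor. For Cd209g the log2 fold change was -6.25 without replicate 2 and -9.04 without replicate 3.

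All 10 genes passed the filter on low counts and all 10 were called lower by edgeR at the threshold of 0.05, beside 10.8% of all 17640 genes tested called lower and 9.68% called higher. All 10 were also lower without overlap between groups, beside 19.8% of genes tested. Their median log2 fold change was -2.91, against 0.016 over all genes tested. Cd209b, Cd209f and Cd209g would not have passed the filter without the niche libraries, so it favoured their calls and lack of overlap. Since the choice of the 10 may also rest on this contrast, the counts are given as a description and nothing is read from them.

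**Figure D2:**
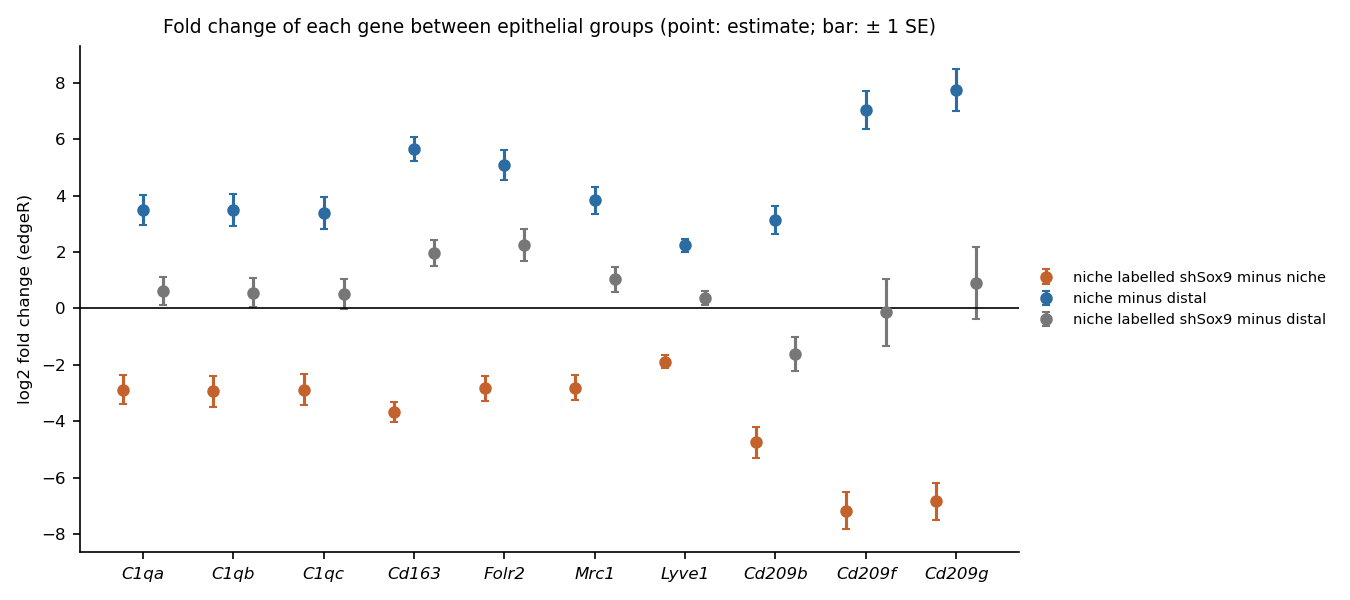
Log2 fold change (edgeR estimate, bar ± 1 SE) of each gene in 3 comparisons of epithelial groups: niche labelled shSox9 minus niche, niche minus distal, and niche labelled shSox9 minus distal, each with 3 libraries a group. All 10 points lie below 0 for the first, from -7.17 to -1.88, and above 0 for the second, from 2.25 to 7.76; the third lies between -1.61 and 2.26. Each pair of comparisons shares a group of libraries.

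Other genes of resident and recruited macrophages were lower in the libraries labelled shSox9 as well. Of 19 further interstitial macrophage genes tested, 14 fell, 1 rose and 4 did not pass the test, with a median log2 fold change of -2.17. Csf1r, the receptor for the macrophage growth factor CSF1, averaged 49.99 ± 42.6 CPM under the label and 286 ± 28.4 CPM in niche (SD, n = 3 each) and fell 5.72-fold (log2 fold change -2.52, SE 0.46, edgeR adjusted p = 0.00324), or by 3.48 on the log2 scale without replicate 1 under the label. Ccl8, a chemokine of resident macrophages, averaged 19.2 ± 8.96 CPM under the label and 205 ± 24.7 CPM in niche and fell 10.7-fold (adjusted p = 8.69e-05). F13a1, the coagulation factor XIII A chain, fell 3.51-fold (adjusted p = 0.00064). Cbr2, a carbonyl reductase that is also abundant in lung epithelium, was the gene that rose, 1.85-fold (adjusted p = 0.00631).

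The 4 other Cd209 genes with a row all fell under the label. Cd209a, the family member of dendritic cells, averaged 1.98 ± 1.88 CPM under the label and 13.4 ± 5.68 CPM in niche and fell 6.73-fold (adjusted p = 0.0102). Cd209d fell 22.9-fold (adjusted p = 0.00309), Cd209e 13.3-fold (adjusted p = 0.0126) and Cd209c 4.70-fold (adjusted p = 0.0298), with niche means below 2 CPM for all 3. Without replicate 1 under the label the log2 fold change was -3.82 for Cd209a, against -2.75 with it, and -5.70 for Cd209d and -5.84 for Cd209e, in place of -4.52 and -3.73. The calls of Cd209e and Cd209c were lost when single libraries were left out, with adjusted p up to 0.0536 for Cd209e and 0.111 for Cd209c. Cd209c, Cd209d and Cd209e would not have passed the filter without the niche libraries, so it favoured their calls.

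Pan-macrophage and leukocyte genes, which do not set interstitial macrophages apart from other macrophages, and markers of other cells moved beside them. Of 13 pan-macrophage and leukocyte genes, 12 fell and 1 did not pass the test: Ctss (cathepsin S) fell 7.89-fold (adjusted p = 0.00219), Laptm5 5.43-fold (adjusted p = 0.00214), Cd68 5.35-fold (adjusted p = 0.00519) and Ptprc 4.34-fold (adjusted p = 0.000707). Replicate 1 under the label was the highest of its group here as well, and without it the log2 fold changes were -4.02 for Ctss, -3.25 for Laptm5 and -3.48 for Cd68, in place of -2.98, -2.44 and -2.42. Of 12 alveolar macrophage genes, 9 fell and 3 did not pass, beside 10.8% of all genes tested called lower. Their summed level was 75.6 to 111 CPM under the label, against 358 to 1742 CPM in niche. Among those that did not pass, Fabp4 had the higher mean under the label, 2.37 ± 0.576 CPM against 1.59 ± 1.42 CPM in niche. Siglecf and Krt79 passed the filter on low counts only with the niche libraries, which favoured their calls. Chil3, a chitinase-like protein of alveolar macrophages, fell 39.4-fold (adjusted p = 0.00159), and without niche replicate 1, which alone held 1190 unscaled CPM of it, the log2 fold change was -3.78 in place of -5.30 (-5.91 without replicate 1 under the label). Itgax (CD11c) fell 8.41-fold (adjusted p = 0.000424), Car4 10.8-fold (adjusted p = 0.00067) and Atp6v0d2 8.99-fold (adjusted p = 0.00801). Without niche replicate 1 the log2 fold change was -2.57 for Car4 and -2.16 for Atp6v0d2, in place of -3.44 and -3.17, and without replicate 1 under the label it was -3.94 for Atp6v0d2 and -3.96 for Itgax, against -3.07 for Itgax with it. Monocyte genes summed to 190 to 269 CPM under the label, against 386 to 459 CPM in niche, and 5 of 8 fell, 1 rose and 2 did not pass. Dendritic cell genes summed to 28.9 to 124 CPM under the label, against 133 to 228 CPM in niche, with 3 of 8 called lower, and this list also holds Cd209a. No member of these lists was at 0 in all libraries of either group. The part of any cell type in the lower level of the 10 genes was not tested.

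Of 10 lung epithelial identity genes 5 rose, 2 fell and 3 did not pass the test. Their summed level, most of it Sftpc, was 30789 to 54230 CPM under the label, against 8598 to 11332 CPM in niche. Sftpc, surfactant protein C of alveolar type 2 cells, rose 4.30-fold (adjusted p = 0.000564), Sftpb 3.92-fold (adjusted p = 0.000308), Ager, a gene of alveolar type 1 cells, 2.82-fold (adjusted p = 0.000457) and Abca3, a lipid transporter of type 2 cells, 2.47-fold (adjusted p = 0.000261). The 2 that fell, named after their values were seen, were Foxj1, a ciliated cell factor, with 0.438 ± 0.0240 CPM under the label and 6.77 ± 3.29 CPM in niche (adjusted p = 0.00012), and Epcam, with 27.3 ± 4.54 CPM under the label and 54.2 ± 22.2 CPM in niche (SD, n = 3 each, adjusted p = 0.0213). The call of Epcam was lost in 6 alternatives, with adjusted p up to 0.0905. Whether this shift bears on the 10 genes was not tested.

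Of 10 classical complement genes besides C1q, 5 fell and 5 did not pass, with a median log2 fold change of -0.34. C3, the central complement component, was 1.499-fold lower (adjusted p = 0.0321), C2 1.86-fold (adjusted p = 0.0223), Calr (calreticulin) 1.45-fold (adjusted p = 0.0286) and C1qbp, which binds C1q heads, 1.30-fold (adjusted p = 0.0334). The fifth was Cd93, a membrane protein first described as a C1q receptor, which is named here after its values were seen. It fell most of the 5, by 2.84-fold (adjusted p = 5e-04), and kept its call in every alternative run. The other 4 calls were lost in at least 4 alternatives, with adjusted p up to 0.0934 for C3, 0.0812 for C2, 0.0875 for Calr and 0.115 for C1qbp. Lipid-associated macrophage genes had 2 called lower of 8, haem and iron handling genes 3 of 9, macrophage growth factors 1 of 4 and blood endothelial genes 2 of 8, with none called higher. Neither of 2 folate receptor and transporter genes tested and none of 5 lymphatic endothelial genes passed the test.

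The second comparison sets niche epithelial libraries against distal ones from the same kind of lung. All 10 genes were higher in niche, from 4.75-fold for Lyve1 to 50.7-fold for Cd163 among the genes outside the Cd209f and Cd209g pair, and no groups overlapped. C1q transcripts were present in distal libraries at 31.3 to 98.2 TPM, whereas Cd163, Folr2 and the lectins were below 1 TPM there. The 10 genes were all called higher, beside 28.5% of 17640 genes tested, and all were higher without overlap, beside 33.8%. Their median log2 fold change was 3.67, against 0.023 over all genes tested. Here too Cd209b, Cd209f and Cd209g passed the filter only with the niche libraries, which favoured their calls, and nothing is read from these counts.

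C1qa was at 668, 703 and 855 TPM in niche libraries, against 31.3, 41.3 and 59.1 TPM in distal libraries. It averaged 437 ± 70.9 CPM in niche and 38.8 ± 12.5 CPM in distal (SD, n = 3 each), an 11.3-fold difference (log2 fold change 3.50, SE 0.53). C1qb was at 51.8, 68.4 and 98.2 TPM in distal libraries, with a log2 fold change of 3.50 (SE 0.57), and C1qc was at 49.4, 51.7 and 67.9 TPM, with a log2 fold change of 3.39 (SE 0.58). In distal libraries replicate 3 was highest and replicate 1 lowest for each chain, within a spread of less than 2-fold.

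Cd163 averaged 27.2 ± 6.25 CPM in niche and 0.521 ± 0.390 CPM in distal libraries (SD, n = 3 each), with a log2 fold change of 5.66 (SE 0.43). Its distal counts were 12, 11 and 1, against 473, 733 and 492 in niche. Folr2 averaged 22.1 ± 3.80 CPM in niche and 0.633 ± 0.263 CPM in distal libraries, 34.0-fold higher (log2 fold change 5.09, SE 0.54). Mrc1 averaged 153 ± 30.3 CPM in niche and 10.7 ± 2.35 CPM in distal libraries, 14.2-fold higher (log2 fold change 3.83, SE 0.48). These 3 receptors differed over a wider range than the C1q chains, and Lyve1 differed least. Lyve1 averaged 12.9 ± 2.82 CPM in niche and 2.72 ± 0.0733 CPM in distal libraries (log2 fold change 2.25, SE 0.23).

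Cd209b had 236, 160 and 114 counts in niche libraries, against 24, 3 and 14 counts in distal libraries, with a log2 fold change of 3.13 (SE 0.50). It was the lectin with the clearest distal signal, and without distal replicate 1 the log2 fold change was 3.73. Cd209f had 4.34 expected counts over the 3 distal libraries, with a log2 fold change of 7.04 (SE 0.68), which was 8.32 without distal replicate 2. Cd209g had 1018 counts over the niche libraries, against 3 over the distal libraries after rounding, a ratio per library size of 294 with a 95% counting interval of 100 to 1427. These 3 distal counts all came from replicate 1, and without it Cd209g was at least 183-fold higher in niche, with the same floor over the 2 remaining distal libraries.

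None of the 4 other Cd209 genes tested passed between niche and distal. Their summed level, most of it Cd209a, was 11.4 to 23.1 CPM in niche, against 10.3 to 22.7 CPM in distal. Cd209d averaged 1.63 ± 0.115 CPM in niche and 0.983 ± 0.868 CPM in distal. A missed call this close to the counting limit does not show equal levels. Cd209a averaged 13.4 ± 5.68 CPM in niche and 17.0 ± 6.41 CPM in distal (adjusted p = 0.624), and Cd209e 1.78 ± 0.897 CPM in niche and 1.72 ± 1.08 CPM in distal (adjusted p = 0.948). Whether Cd209b, Cd209f and Cd209g differ from these in their change was not tested.

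Most other interstitial macrophage genes were higher in niche: 15 of 19 rose, 2 fell and 2 did not pass, with a median log2 fold change of 3.09. Csf1r rose 6.90-fold (adjusted p = 0.000428) and Ccl8 26.3-fold (adjusted p = 8.1e-07). The 2 that fell had their highest levels in distal libraries, Cbr2 with 26.7-fold less (adjusted p = 6.63e-08) and Gas6, a ligand of the receptor MERTK, with 2.55-fold less (adjusted p = 2.33e-05). Vsig4, a complement receptor of resident macrophages, did not pass the filter on low counts. It had 0.556, 0.139 and 0.811 unscaled CPM in niche libraries and 0 in all 3 distal libraries. Of the alveolar macrophage genes 11 of 12 rose, beside 28.5% of all genes tested, with Chil3 37.1-fold (adjusted p = 0.000372), Car4 10.3-fold (adjusted p = 0.000137), Itgax 7.00-fold (adjusted p = 0.000112) and Ctsk 2.91-fold (adjusted p = 0.00035). Their sum was 358 to 1742 CPM in niche, against 41.7 to 56.4 CPM in distal libraries. The alveolar macrophage receptor Marco was at 0 in all 3 distal libraries, against 1.76, 0.649 and 0.437 unscaled CPM in niche. Niche replicate 1 carried most of the sum, and without that library the log2 fold change was 3.69 for Chil3 and 2.51 for Car4, in place of 5.21 and 3.36. Chil3 stood at 6.02 without distal replicate 1. Siglecf, Marco and Krt79 passed the filter on low counts only with the niche libraries, which favoured their calls.

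Of the pan-macrophage and leukocyte genes 12 of 13 rose, among them Ctss 9.18-fold (adjusted p = 0.000324), Laptm5 4.77-fold (adjusted p = 0.000791) and Cd68 7.88-fold (adjusted p = 0.000406). Lyz2, a lysozyme gene that type 2 cells also express, fell 4.92-fold (adjusted p = 3.34e-06). Monocyte genes summed to 386 to 459 CPM in niche, against 122 to 196 CPM in distal, with 5 of 8 higher and 1 lower. Dendritic cell genes summed to 133 to 228 CPM in niche, against 89.5 to 109 CPM in distal, with 1 of 8 higher. The part of these cells in the higher level of the 10 genes was not tested. All 10 lung epithelial identity genes fell in niche: Sftpc 23.6-fold (adjusted p = 7.62e-07), Sftpb 21.05-fold (adjusted p = 2.75e-07), Ager 17.7-fold (adjusted p = 1.26e-07) and Scgb1a1, the club cell secretoglobin, 12.3-fold (adjusted p = 4.99e-05).

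Because Lyve1 is also a lymphatic gene, lymphatic endothelial genes were read beside it. Their summed level was 76.6 to 110 CPM in niche, against 82.8 to 118 CPM in distal, most of it from Pdpn, which type 1 cells also make. Prox1, the defining lymphatic factor, stayed at 0.0624 to 1.11 unscaled CPM in niche and 0.0520 to 0.754 unscaled CPM in distal libraries. Of 5 lymphatic genes 2 were higher, 1 was lower and 2 did not pass. Flt4 rose 1.93-fold (adjusted p = 0.0422) and Mmrn1 3.69-fold (adjusted p = 0.0451), calls that were lost in 8 and 6 alternatives with adjusted p up to 0.131 and 0.162. Reln fell 19.2-fold (adjusted p = 0.000638). The log2 fold change of Reln was -3.64 without niche replicate 2, in place of -4.26, and that of Mmrn1 was 3.22 without distal replicate 3, in place of 1.88.

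Of the classical complement genes besides C1q, 9 of 10 rose in niche, by less than the C1q chains, with a median log2 fold change of 0.74. C3 rose 1.93-fold (adjusted p = 0.000674), Lrp1, an endocytic receptor, 1.59-fold (adjusted p = 0.00145), Serping1, the inhibitor of C1r and C1s, 1.58-fold (adjusted p = 0.0189) and the protease gene C1s1 1.62-fold (adjusted p = 0.0302). The calls of Serping1 and C1s1 were lost when single libraries were left out, with adjusted p up to 0.0832 and 0.137. Lipid-associated macrophage genes had 6 of 8 called higher, haem and iron handling genes 3 higher and 2 lower of 9, folate genes 1 higher of 2, macrophage growth factors 2 higher and 2 lower of 4, and blood endothelial genes none of 8. When TPM values were tested with limma, the median over all genes moved to 0.55 and 80.7% of calls were higher, against 52.5% in the count test. All 10 genes stayed higher relative to that median, by 1.88 for Lyve1 to 4.85 for Cd209g on the log2(TPM + 0.5) scale.

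**Figure D3:**
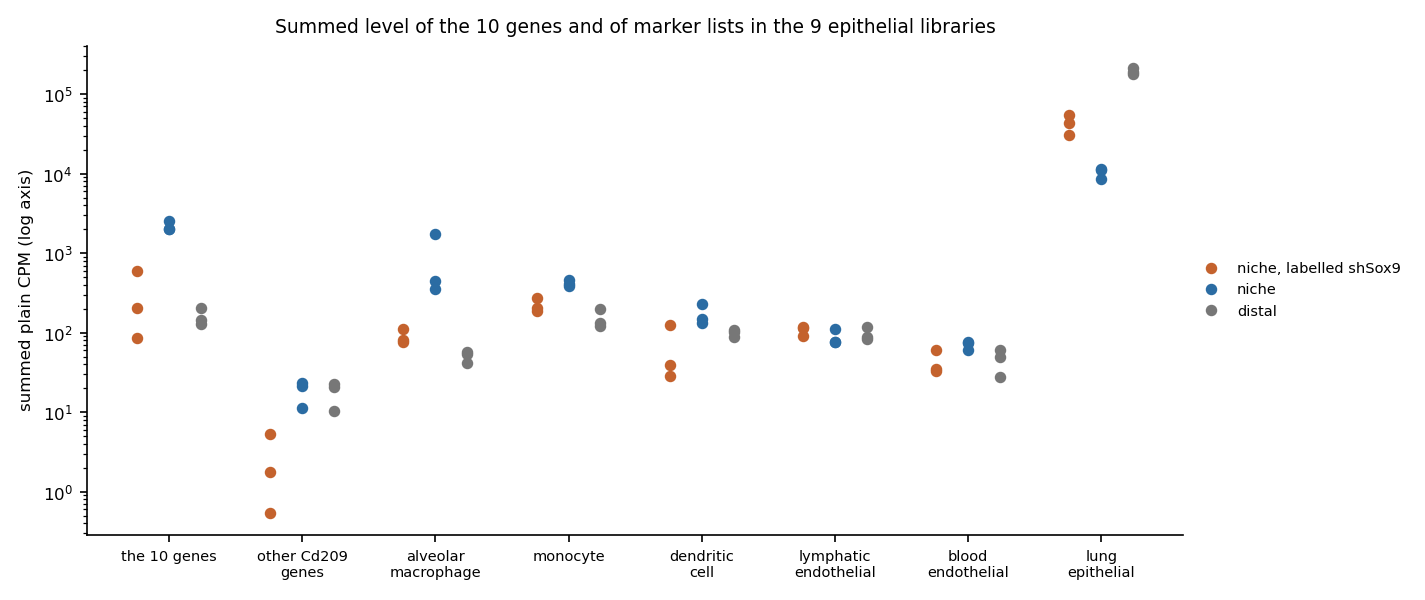
Summed plain CPM (log axis) of the 10 genes and of 7 marker lists in the 9 epithelial libraries; each point is a library, with niche labelled shSox9 left of niche and niche left of distal. The 10 genes sum to 86.4 to 605 CPM under the label shSox9, 2018 to 2519 CPM in niche and 128 to 206 CPM in distal libraries, and the lung epithelial sums run in the opposite order between niche and the other groups.

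The third comparison sets niche libraries labelled shSox9 against distal libraries, which also served in the comparison above. The 10 genes did not move together. Cd163 and Folr2 were higher under the label, by 3.94-fold and 4.79-fold, and Mrc1 and Lyve1 were 2.04-fold and 1.29-fold higher without being called. The C1q chains and Cd209b overlapped, and Cd209f and Cd209g were at a few counts in both groups. Of the 10 genes 2 were called higher, beside 21.7% of all genes tested, and 0 were called lower, beside 22%. Without adjustment, 3 were higher, beside 25.6% of genes, and 1 was lower, beside 25.8%, at the same threshold in edgeR. DESeq2 called 1 lower, Cd209b, beside 13.5% of genes, and limma on TPM called 4 higher, beside 47.8%. Without overlap in scaled CPM 3 were higher, beside 25.8%. The median log2 fold change was 0.59, against -0.0047 over all genes.

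Cd163 averaged 2.11 ± 0.518 CPM in libraries labelled shSox9 and 0.521 ± 0.390 CPM in distal libraries (SD, n = 3 each), with a log2 fold change of 1.98 (SE 0.47). Folr2 averaged 3.09 ± 2.31 CPM under the label and 0.633 ± 0.263 CPM in distal, with a log2 fold change of 2.26 (SE 0.56) that was 1.49 without replicate 1 under the label. Both had every library under the label above every distal one. Lyve1, at 3.72, 2.89 and 3.93 CPM under the label, against 2.66, 2.80 and 2.69 CPM in distal, was the third gene without overlap, at a log2 fold change of 0.37 (SE 0.23) that was not called. Mrc1 averaged 21.9 ± 17.8 CPM under the label and 10.7 ± 2.35 CPM in distal, with overlap on this scale and a log2 fold change of 1.03 (SE 0.46). In TPM its groups did not overlap, with a lowest value of 2.68 under the label and a highest of 2.41 in distal. For Mrc1 the value was 0.13 without replicate 1 under the label, and it was called higher at 1.42 without replicate 2, at 1.04 with no filter and in limma.

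For each C1q chain, scaled CPM was above all distal libraries in replicate 1 under the label, below all of them in replicate 2 and within their range in replicate 3. C1qa averaged 59.6 ± 49.4 CPM under the label and 38.8 ± 12.5 CPM in distal libraries (SD, n = 3 each), a log2 fold change of 0.62 (SE 0.49). Without that replicate the sign turned, to -0.26 for C1qa, -0.43 for C1qb and -0.58 for C1qc, and without replicate 2 under the label C1qa and C1qb were called higher, at 1.06 and 1.01. Cd209b had 6, 9 and 3 counts under the label, against 24, 3 and 14 in distal, a log2 fold change of -1.61 (SE 0.61) with overlap. It was -1.01 without distal replicate 1, and -2.07 and called lower without distal replicate 2. Cd209f and Cd209g had 5 and 8 counts over the group labelled shSox9, against 4.34 and 2.66 expected counts over the distal group, and no difference could be resolved at this depth.

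The 4 other Cd209 genes were all lower under the label than in distal libraries, at a summed 0.544 to 5.27 CPM against 10.3 to 22.7 CPM, most of it Cd209a. Cd209a was lower by 8.55-fold (adjusted p = 0.00215), Cd209e by 12.7-fold (adjusted p = 0.00629), Cd209d by 13.8-fold (adjusted p = 0.00408) and Cd209c by 5.27-fold (adjusted p = 0.0108, up to 0.0563 without distal replicate 1). Distal means were 1.72 ± 1.08 CPM for Cd209e, 0.983 ± 0.868 CPM for Cd209d and 0.877 ± 0.489 CPM for Cd209c, close to the counting limit. Cd209c, Cd209d and Cd209e passed the filter only with the niche libraries. Without replicate 1 under the label the log2 fold changes were -4.17 for Cd209a, -5.77 for Cd209e and -4.96 for Cd209d, in place of -3.10, -3.67 and -3.78, and Cd209d stood at -2.79 without distal replicate 3. Of 19 other interstitial macrophage genes 5 rose, 2 fell and 12 did not pass. F13a1 rose 4.92-fold (adjusted p = 6.01e-05) and Clec4n, the lectin dectin-2, 3.68-fold (adjusted p = 0.0179), a call lost in 4 alternatives with adjusted p up to 0.0776 and a log2 fold change of 0.93 in place of 1.88 without replicate 1 under the label. Cbr2 fell 14.4-fold (adjusted p = 6.05e-07) and Gas6 2.13-fold (adjusted p = 0.000156). Of 13 pan-macrophage and leukocyte genes none rose and 2 fell, Lyz2 by 6.08-fold (adjusted p = 3.01e-06) and Ptprc by 1.80-fold (adjusted p = 0.0347), the second lost in 7 alternatives with adjusted p up to 0.384. All 10 lung epithelial identity genes fell, Sftpc by 5.48-fold (adjusted p = 5.07e-05), Sftpb by 5.36-fold (adjusted p = 1.61e-05), Ager by 6.29-fold (adjusted p = 2.79e-06) and Scgb1a1 by 21.9-fold (adjusted p = 2.42e-05), a log2 fold change of -4.46 that was -5.11 without replicate 3 under the label. The part of this shift in the values of the 10 genes was not tested.

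Counts for the remaining lists in this comparison were small. Alveolar macrophage genes had 1 of 12 higher, monocyte genes 2 higher and 1 lower of 8, lipid-associated macrophage genes 1 of 8 higher, dendritic cell genes 4 of 8 lower and complement genes 2 of 10 higher. Lymphatic genes had 1 higher and 1 lower of 5, haem and iron handling genes 2 higher and 3 lower of 9, folate genes 1 of 2 higher, macrophage growth factors 2 higher and 1 lower of 4, and blood endothelial genes none of 8. With limma on TPM, the median over all genes was 0.51 and 83% of calls were higher, against 49.7% in the count test. Relative to that median Folr2 was 1.59 higher under the label, Mrc1 0.70, Cd163 0.51 and Lyve1 0.27 on the log2(TPM + 0.5) scale, and Cd209b was -1.04.

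The 3 C1q chains kept a nearly fixed proportion to each other while their total varied widely. Their summed TPM was 799, 108 and 259 in libraries labelled shSox9, 2533, 2691 and 3371 in niche and 132, 161 and 225 in distal libraries. Over the 9 epithelial libraries C1qb held 42.3 ± 1.35% of the sum, C1qc 31.5 ± 2.44% and C1qa 26.2 ± 1.61% (SD, n = 9). By group, C1qb held 42.0% under the label, 43.1% in niche and 41.7% in distal libraries. The group ranges overlapped for C1qa and C1qc, while the C1qb share was 41.9% to 42.2% under the label, just below the 42.5% to 43.5% of niche. Distal replicate 1 stood apart, with 37.3% from C1qc. In the 4T1 in vivo libraries, at a summed 7.28, 7.06 and 13.4 TPM, the shares ranged more widely, from 19.9% to 36.8% for C1qa, on 18 to 39 counts a library.

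**Figure D4:**
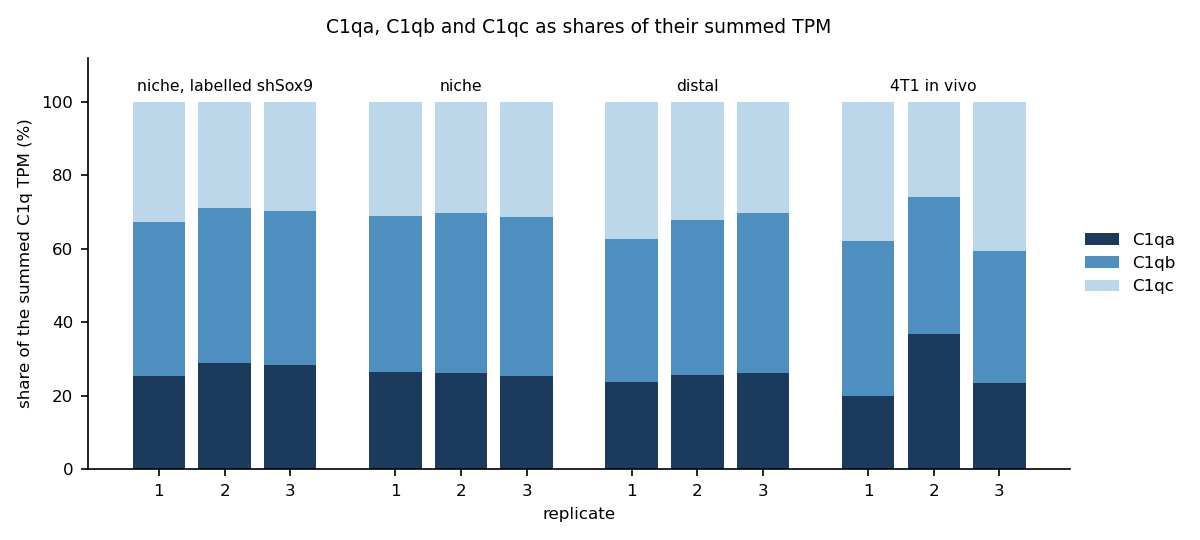
Share of the summed C1q TPM (%) held by C1qa, C1qb and C1qc, stacked, in each replicate of the niche group labelled shSox9, the niche group, the distal group and the 4T1 in vivo group; the 4T1 in vitro libraries list all 3 chains at 0. C1qb holds 39.1% to 43.6% in the 9 epithelial libraries.

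Set against general macrophage transcripts, the 10 genes fell into different patterns. The denominator was the summed CPM of Csf1r, Adgre1, Cd68, Laptm5, Tyrobp and Fcer1g, at 532, 110 and 168 CPM in libraries labelled shSox9, 1576, 1372 and 1433 CPM in niche and 163, 156 and 254 CPM in distal libraries. Between the group labelled shSox9 and niche, 6 of the 10 were lower on this scale without overlap, beside 0.442% of all 17640 genes tested, and 4 overlapped. These shares over all genes depend on the denominator, which itself differed between the groups, and nothing is read from them. Mrc1 was at 8.84%, 8.34% and 9.14% of the sum under the label, against 12.9%, 10.0% and 10.3% in niche, a small difference with no overlap. C1qb averaged 37.5 ± 9.53% under the label and 55.9 ± 10.97% in niche, and C1qc 30.5 ± 8.80% under the label and 44.7 ± 8.66% in niche (SD, n = 3 each). The lectins kept the widest gap, with Cd209f at 0.0752 ± 0.130% under the label and 0.917 ± 0.0151% in niche, Cd209g at 0.0789 ± 0.128% under the label and 1.15 ± 0.246% in niche, and Cd209b at 0.188 ± 0.190% under the label and 0.577 ± 0.104% in niche. C1qa, Cd163, Folr2 and Lyve1 overlapped, and Lyve1 was the one with the higher mean under the label, 1.99 ± 1.07% against 0.947 ± 0.248% in niche.

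Between niche and distal libraries 8 of the 10 were higher on this scale without overlap, beside 0.748% of all genes tested. Cd163 averaged 2.003 ± 0.557% in niche and 0.282 ± 0.225% in distal libraries, Folr2 1.62 ± 0.346% in niche and 0.314 ± 0.167% in distal, and Mrc1 11.1 ± 1.60% in niche and 5.07 ± 1.22% in distal (SD, n = 3 each). The C1q chains were higher by 1.64 to 1.80 times. Lyve1 and Cd209b were the 2 that overlapped. Between the group labelled shSox9 and distal, Cd163, Folr2 and Mrc1 were higher without overlap, by 4.00, 4.04 and 1.73 times, beside 4.99% of all genes tested, and the other 7 overlapped. These ratios were not tested, and the denominator genes were themselves among the genes that differed between the groups.

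**Figure D5:**
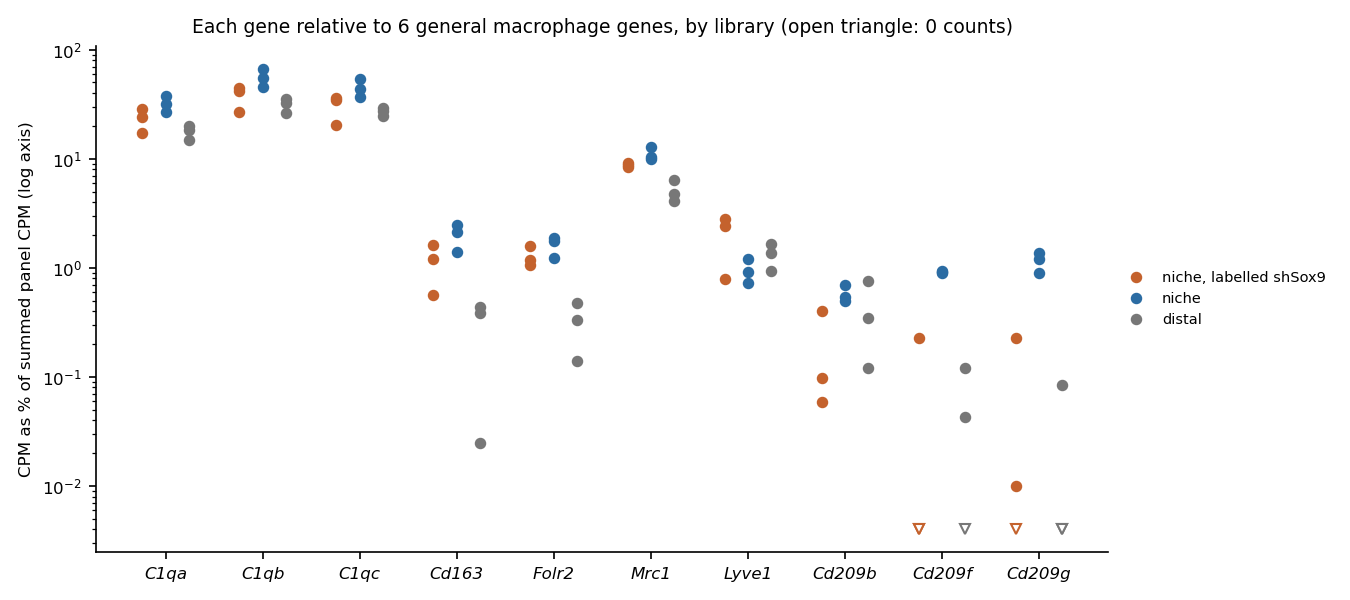
CPM of each gene as a percentage of the summed CPM of 6 general macrophage genes (log axis) in each of the 9 epithelial libraries, with niche labelled shSox9 left of niche and niche left of distal; open triangles are libraries with 0 counts. Cd209f and Cd209g in niche libraries, at 0.890% to 1.38%, stand clear of all other libraries, while Lyve1 overlaps among all 3 groups.

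Genes with the most similar profiles over the 9 epithelial libraries were ranked by the root-mean-square departure of their centred log2(CPM + 0.5) values from the mean profile of the C1q chains, among 15403 genes other than the 10 with a mean of at least 1 CPM. The closest were Ms4a6d (0.25), Gatm (0.26), Msr1 (0.26), Ctss (0.29) and Fcgr3 (0.29), where the profile itself varies by 1.75 around its mean and the 3 chains depart from it by 0.046 to 0.10. For the mean profile of the 7 receptors the closest were Gm28502 (0.33), P2ry13 (0.39), Kcnj10 (0.39), Prune2 (0.41) and Ccl8 (0.46). The receptors themselves departed by 0.45 (Mrc1) to 0.84 (Lyve1), so they were less alike than the C1q chains. Ms4a6d, a membrane protein of the MS4A family, averaged 44.8 ± 42.0 CPM under the label, 275 ± 26.2 CPM in niche and 30.3 ± 6.52 CPM in distal libraries (SD, n = 3 each). All these libraries share their depth and cell content across genes, so the ranking is a description.

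In 4T1 cells the 10 genes were at or near 0 in culture and low in cells taken from lung. C1qa had 18, 32 and 39 counts in vivo, C1qb 40, 34 and 63, and C1qc 40, 26 and 79, against 0 counts in every in vitro library. Against a floor of 3 counts over the in vitro group, C1qa was at least 39.5-fold higher in vivo, C1qb at least 60.8-fold and C1qc at least 64.4-fold. At 1.45 to 5.43 TPM the chains in vivo stayed below every epithelial library. Of the 10 genes 4 passed the filter on low counts, C1qa, C1qb, C1qc and Mrc1, and all 4 were called higher, beside 27% of 14022 genes tested, and did not overlap, beside 31.8%. The 3 C1q chains passed the filter through the in vivo libraries alone, so their calls and lack of overlap follow from it, and nothing is read from these counts.

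Mrc1 alone was counted in all 15 libraries. It had 2.19, 2.95 and 11.5 scaled CPM in vivo, against 0.390, 0.729 and 0.633 CPM in vitro, a log2 fold change of 3.21 (SE 0.64). Replicate 3 was far above the other in vivo libraries, and without it the log2 fold change was 2.10. Lyve1 had 8, 32 and 10 counts in vivo and 0 in vitro, at least 22.2-fold higher against the floor, or 12.1-fold without replicate 2. Cd163 had 3, 2 and 2 counts and Cd209f 0, 0 and 7 counts in vivo, against 0 in vitro, each at least 3.11-fold higher. All counts of Cd209f came from replicate 3, without which no fold can be given. Folr2, Cd209b and Cd209g had at most 3 counts over either group, which allows no fold.

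Leukocyte genes moved beside these few counts, and replicate 3, the highest in vivo library for the C1q chains and Mrc1 but not for Lyve1 or Cd163, was highest for them. Pan-macrophage and leukocyte genes summed to 98.9, 178 and 804 CPM in vivo, against 8.58 to 12.6 CPM in vitro, and 11 of 12 tested rose. Lyz2 averaged 216 ± 249 CPM in vivo and 0.0754 ± 0.0616 CPM in vitro (SD, n = 3 each, adjusted p = 0.000136), Ctss 65.3 ± 70.0 CPM in vivo and 0.0163 ± 0.0282 CPM in vitro (adjusted p = 0.000157), and Ptprc 8.17 ± 7.54 CPM in vivo and 0.0962 ± 0.0440 CPM in vitro (adjusted p = 0.000244). Laptm5 averaged 14.2 ± 12.6 CPM in vivo and was at 0 in vitro (adjusted p = 0.000455). All 6 alveolar macrophage genes tested rose, and their sum was 22.6, 26.9 and 182 CPM in vivo, against 0.0870 to 0.559 CPM in vitro, where Siglecf, Marco, Chil3, Ear1, Ear2, Krt79 and Car4 were at 0. Chil3 averaged 43.2 ± 52.8 CPM, Car4 12.2 ± 14.7 CPM and Ear2 3.40 ± 4.34 CPM in vivo, and all 3 were at 0 in vitro (adjusted p = 0.00145, 0.00214 and 0.00482), while Atp6v0d2 averaged 6.66 ± 8.02 CPM in vivo and 0.0116 ± 0.0200 CPM in vitro (adjusted p = 0.000909). Without in vivo replicate 3 the log2 fold change of Ptprc was 5.21, in place of 6.30, and Lyz2 stood at 50.5 and 102 unscaled CPM in the other in vivo libraries, against 514 in that one. The part of these cells in the counts of the 10 genes was not tested. Genes at or near 0 in vitro passed the filter through the in vivo libraries alone, so their calls and adjusted p-values follow from it. Of all 14022 genes tested, 27% were called higher, and nothing is read from the counts of calls.

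Of 9 other interstitial macrophage genes tested in 4T1 cells, 6 rose and 3 did not pass. F13a1 averaged 11.99 ± 0.807 CPM in vivo and 0.308 ± 0.136 CPM in vitro (SD, n = 3 each) and rose 37.0-fold (adjusted p = 1.21e-06). Unlike the leukocyte genes it was even over the in vivo libraries, and it passed the filter through them alone. Fcna (ficolin A) rose 3.35-fold (adjusted p = 0.00048), Cbr2 2.03-fold (adjusted p = 0.00121) and Stab1, a scavenger receptor, 1.44-fold (adjusted p = 0.00545, and 0.201 when all 15 libraries shared one fit). No other Cd209 gene and no lymphatic gene passed the filter.

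Of 9 classical complement genes tested 6 rose, 1 fell and 2 did not pass. C4b averaged 28.2 ± 5.37 CPM in vivo and 0.0973 ± 0.129 CPM in vitro (SD, n = 3 each, adjusted p = 1.07e-06). C1ra, a C1 protease gene, rose 8.56-fold (adjusted p = 0.000191) and C3 5.03-fold (adjusted p = 0.000701), and C1qbp fell 1.67-fold (adjusted p = 0.000273). Lung epithelial identity genes had 4 higher and 2 lower of 8: Sftpc averaged 61.5 ± 21.97 CPM in vivo and 1.96 ± 1.02 CPM in vitro (adjusted p = 6.79e-06), Scgb1a1 8.98 ± 2.38 CPM in vivo and 0 in vitro (adjusted p = 1.23e-05), Epcam fell 1.56-fold (adjusted p = 0.00426) and Cdh1 2.55-fold (adjusted p = 7.3e-05). Monocyte genes had 5 of 5 tested higher, dendritic cell genes 2 of 2, blood endothelial genes 5 of 5 and lipid-associated macrophage genes 6 of 7. The same limit holds for genes at or near 0 in vitro here, C4b and Scgb1a1 among them, whose calls follow from the filter. Haem and iron handling genes had 2 higher and 4 lower of 8, folate genes 2 of 2 lower and macrophage growth factors 2 of 4 higher.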

How the data were processed

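RNA was extracted with a micro column kit, made into libraries and read at 75 bases, per the labels' protocols. RSEM, DESeq2 and GRCm38 are named in the submitters' processing notes without versions; the sources used here do not name the aligner, annotation release or use of strand. The authors deposited, per gene and library, expected counts, TPM and FPKM; FPKM values were not used. Identifiers were matched to symbols for 54809 of 54838 genes. Expected counts were rounded to whole numbers, and 11.8% to 14.1% of genes in a library had a value that was not whole. The main test was edgeR's quasi-likelihood test (edgeR 4.0.16, R 4.3.3) with TMM scaling, edgeR's filter on low counts and Benjamini-Hochberg adjustment over all genes tested at a threshold of 0.05. One fit held the 9 epithelial libraries, another the 6 libraries of 4T1 cells, since each set shares its own spread. CPM is given scaled by TMM unless called unscaled, and list sums, Sox9, Epcam, Ptprc ranges and ratios to the 6 macrophage genes use unscaled CPM. The script was tested on simulated data. Alternatives were edgeR with RLE size factors, DESeq2 1.42.0, no filter, limma 3.58.1 on deposited TPM as log2(TPM + 0.5), other samples in the fit, the replicate number as a block, and leaving out each library.

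The 10 genes and all other lists were chosen with earlier results of these data known. From each described list, up to 4 called genes with the highest mean CPM in the higher group are named, or 2 where none was called. Same-numbered libraries of the group labelled shSox9 and the niche group deviated together weakly, with correlations of 0.17, 0.121 and 0.14 across genes. The replicate numbers were taken as pairing them, from the data and not from the labels. The main test does not use this pairing, which enters only as the block among the alternatives. For the 4T1 replicates no label names separate cultures or animals, and their p-values then measure only how far these libraries differ, a spread that may be technical. Counting intervals and limits cover counting error only.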

Additional observations from a re-analysis of the deposited data

How the results depend on the processing

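Between the group labelled shSox9 and niche, and between niche and distal, all 10 genes kept their direction and call under every alternative run. These runs reuse the libraries by which the 10 genes were chosen, so the stability is a description and adds no support to the calls. Over all genes, limma on TPM called 1116 genes higher between the group labelled shSox9 and niche, in place of 1707, and leaving out single libraries gave 940 to 2039 higher and 1298 to 2185 lower, in place of 1909 lower. Limma also gave 9079 higher and 2174 lower between niche and distal (5025 and 4554 in the count test), 8606 higher and 1760 lower between the group labelled shSox9 and distal (3833 and 3886), and 2155 lower in 4T1 cells (3370).

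Between the group labelled shSox9 and distal, limma called 4 of the 10 genes higher in place of 2, beside 47.8% of all genes, and the test without a filter 3, Mrc1 added, beside 12.2% (2 to 5 with single libraries left out, beside 17.8% to 20.5%). RLE scaling, DESeq2 and no filter each called 1 lower, Cd209b, in place of 0 (0 to 1), beside 23.1%, 13.5% and 12.9% of all genes. Signs turned there for C1qa (-0.26, range to 1.06 over libraries left out), C1qb (-0.43, to 1.01) and C1qc (-0.58, to 0.98) without replicate 1 under the label, for Cd209f under limma (0.015) and without replicate 1 (0.44) or 3 (0.39) under the label or distal replicate 2 (1.15, the range starting at -3.82), and for Cd209g without replicate 3 under the label (-1.27, to 4.40). Between niche and distal they turned for Cd209a under limma (0.23) and for Cd209e with 2 groups in the fit (-0.0094), without niche replicate 1 (-0.43) and without distal replicate 2 (-0.38), with a range of -0.43 to 0.43 over libraries left out. The cause was not tested.

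With the replicate number as a block, 1683 genes were higher and 1955 lower between the group labelled shSox9 and niche, where the numbers were taken as pairing. C1qa then stood at -3.08 and Cd163 at -3.68, and the block changed no call of the 10 genes. Elsewhere the numbers were not taken as pairing the libraries (correlations -0.0675 to 0.1), though the highest of these is not far below the values above. There the block gave 5007 higher and 4493 lower between niche and distal, 3822 and 3870 between the group labelled shSox9 and distal, and 3896 and 3591 in 4T1 cells. Of the values for single genes under an alternative, 1341 kept direction and side of the threshold, 65 lost a call, 10 gained one and 12 turned. Levels of Cd209f, Cd209g and Cd163 outside niche rest on few counts, which limits their folds.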
